A study of Mus musculus with 40 samples.

Results

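B2 and B3 elements are short interspersed repeats (SINEs) of the mouse genome. They derive from a tRNA gene, carry an internal promoter for RNA polymerase III, and were spread by the enzymes of L1 elements. The B2_Mm names are the younger copies and the B3 names the older, more diverged ones. A copy inside a gene is also read by RNA polymerase II as a piece of that gene's RNA, and the tail of B2 copies holds AATAAA, the signal at which a messenger RNA can be cleaved and polyadenylated. A value here is the level of poly(A)-selected RNA that contains the copy, and transcripts of the 2 polymerases cannot be told apart in it.

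The members were all copies of the SINE/B2 family in the transposable-element table whose repeat name starts with B2_ or B3, which gave 133861 of 835636 copies. Of these, 54333 carried the names B2_Mm1a (8749), B2_Mm1t (16649) or B2_Mm2 (28935), and 79528 carried the names B3 (51705) or B3A (27823). The choice goes by repeat name. Every library gives each copy a signal, which is its whole reads divided by 1 factor per library. Of the members, 484 never had a read, and 4769 had a mean signal of at least 5 over the 40 libraries and were tested copy by copy. Those 4769 copies held 71.7% of the members' signal, and all members together held 10.3% of the signal in repeats.

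The libraries are poly(A) RNA from YUMM1.7, a mouse melanoma line with activated Braf, and from cells of tumours that this line formed when it was passaged serially through mice. Tumours were dissociated and the cells cultured for 1 to 3 passages, so the RNA is from cultured cells. The groups are YUMM1.7 cells (3 libraries), and the tumour passages F0 (4), F1 (4), F2 (5), N2.1 (5), N2.2 (3), N2.3 (3), Balb/c-1 (4), Balb/c-2 (3), Balb/c-2 rep2 (3) and CBA (3). All groups carry the same line, and its labels give no treatment; they do not say what N2 stands for, or the mice's strain outside the Balb/c and CBA names, their age or their sex. Letters mark separate tumours, and Balb/c-2 rep2 is a repeat set of libraries from the 3 tumours A, B and C of the first Balb/c-2 set. Each passage occurs once, the parental libraries are cultures of 1 line, and p-values therefore measure the spread between tumours or cultures within 1 lineage.

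Depth was 1280522 to 2976730 reads in repeats per library, and 1 read was worth a signal of 0.659 to 1.51. Melanocyte markers could be read in 2 of 8 genes with a repeat copy in an exon, Tyr and Mlana, and their summed signal was at most 1.15 in any library, so the defining markers that could be read were at or near 0. Leukocyte markers were readable in 5 of 7 genes, with sums of 0 to 15.5 (highest in a Balb/c-2 rep2 library), and endothelial markers in 1 of 4 genes, with sums of 0 to 3.26. The fibroblast list was readable in 5 of 8 genes, with sums of 628 to 3337 over the 40 libraries. The sums were 1645 to 2779 in the parental YUMM1.7 cells, 894 to 2226 in F2 and 628 to 2860 in N2.1. They were 1123 to 1792 in CBA and 2156 to 3186 in the repeat set Balb/c-2 rep2. These sums came from Pdgfra, Pdgfrb and Postn, while the copies in Col1a1 and Dcn reached only 7.37 and 3.12. Their part in the results was not tested. Fewer cells of a type and less RNA per cell cannot be told apart in such bulk libraries. The labels name sequencing batches of 2021 and 2022 and do not assign libraries to them; 6 libraries, Balb/c-2 rep2 and CBA, share a form of library name that the other 34 lack.

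One copy each of B2_Mm1t, B3 and B3A is printed to show how a B2 name differs from the B3 names. Each is the copy of its name with the highest mean signal among nearly full-length copies in exons of noncoding RNAs, and was read from the GENCODE transcripts of GRCm38 in the direction of the element. They are in lower case with AATAAA in capitals.
B2_Mm1t: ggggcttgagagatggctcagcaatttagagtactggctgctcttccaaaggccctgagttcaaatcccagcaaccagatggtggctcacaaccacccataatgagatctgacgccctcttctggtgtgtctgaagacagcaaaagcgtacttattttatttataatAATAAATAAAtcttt
B3: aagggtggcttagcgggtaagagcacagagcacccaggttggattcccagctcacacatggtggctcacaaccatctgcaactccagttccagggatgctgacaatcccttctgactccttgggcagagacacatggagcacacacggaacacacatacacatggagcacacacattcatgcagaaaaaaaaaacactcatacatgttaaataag
B3A: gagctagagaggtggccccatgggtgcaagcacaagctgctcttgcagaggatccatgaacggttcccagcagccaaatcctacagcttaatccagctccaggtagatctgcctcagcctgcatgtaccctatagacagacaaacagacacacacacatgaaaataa
The B2_Mm1t copy, at chr2:119606591-119606772 (+) in the lincRNA 1700020I14Rik, holds AATAAA 2 times. The B3 copy at chr14:105590580-105590794 (-) and the B3A copy at chr14:105592466-105592632 (+) both lie in 9330188P03Rik, in opposite directions, and hold none. Aligned end to end, the B2_Mm1t copy was identical to the B3 and B3A copies at 66.5% of the shorter copy's positions in both cases, and the B3 and B3A copies to each other at 68.9%.

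None of these 3 copies passed the test between F2 and N2.1. The log2(signal + 1) difference was 0.43 for the 1700020I14Rik copy (limma with Benjamini-Hochberg adjustment over all 33215 tested copies, adjusted p = 0.0558), and in 9330188P03Rik it was -0.44 for the B3 copy (limma, adjusted p = 0.437) and -0.31 for the B3A copy (limma, adjusted p = 0.624).

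Most member copies lay in introns, yet the exonic ones carried the larger part of the signal. By the GENCODE annotation of GRCm38, 70.4% of the members lay in introns, 31135 copies lay between genes, 5799 in noncoding exons and 1.81% (2427 copies) in 3' UTRs. The 3' UTR copies held 43.0% of the members' signal (47.5% over all repeat copies) and the intron copies 35.8% (21.7% over all repeat copies). The signal was also uneven among copies: the 10 highest copies held 39.0% of the B2_Mm1t signal and 30.7% of the B2_Mm1a signal, but 11.2% to 13.7% of that of the other 3 names. The highest B3 copy lies antisense in the 5' UTR of Nedd4, a ubiquitin ligase, at 3151 to 8264 per library in the N2.3 and F1 libraries that mark the extremes. The highest B2_Mm1t copy lies in the 3' UTR of H2-D1, a class I histocompatibility gene, and held on average 5.25% of the B2_Mm1t signal in F0 and 32.4% in Balb/c-2 rep2.

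Sense copies of the B2 names held AATAAA in a larger share than those of the B3 names. Sequence could be read for 7825 of 8525 exonic members, of which 3798 lay in the gene's direction (sense), 4021 against it and 6 could not be called; this is the direction of the DNA, not of the reads. Shares of AATAAA were taken over copies that lay whole within 1 transcript exon. Among such sense copies of 3' UTRs, AATAAA stood on the copy's own strand in 96.2% for B2_Mm1a, 87.5% for B2_Mm1t, 75.0% for B2_Mm2, 31.9% for B3 and 31.0% for B3A. In antisense copies the gene's strand held it in at most 0.552%. Direction was first set by this motif, so the contrast between sense and antisense copies is partly built in. The motif, searched as the letters AATAAA on 1 strand, stood in 8.39% of 32851 RefSeq promoter windows of 190 bases. Promoter windows are not 3' UTR sequence, and no background of 3' UTRs was read, so this share is not a matched one.

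Sense B2 copies of 3' UTRs also lay at annotated 3' ends more often than antisense ones. An annotated end fell in the copy or within 50 bases after it for 30 of 67 sense copies of B2_Mm1a and 0 of 33 antisense copies. The counts were 58 of 121 and 2 of 80 for B2_Mm1t, and 114 of 273 and 9 of 191 for B2_Mm2. For B3 they were 130 of 518 and 44 of 463, and for B3A 77 of 333 and 25 of 210. The share of copies that were sense did not divide the names, at 60.2% for B2_Mm1t, 58.8% for B2_Mm2, 52.8% for B3 and 61.3% for B3A. Sense copies held 88.3% of the 3' UTR signal of B2_Mm1a and 94.7% of that of B2_Mm1t, the names whose signal lay most in a few copies, and 68.4% for B2_Mm2, 70.1% for B3 and 72.3% for B3A. These counts describe the annotation and have no test.

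**Figure D1:**
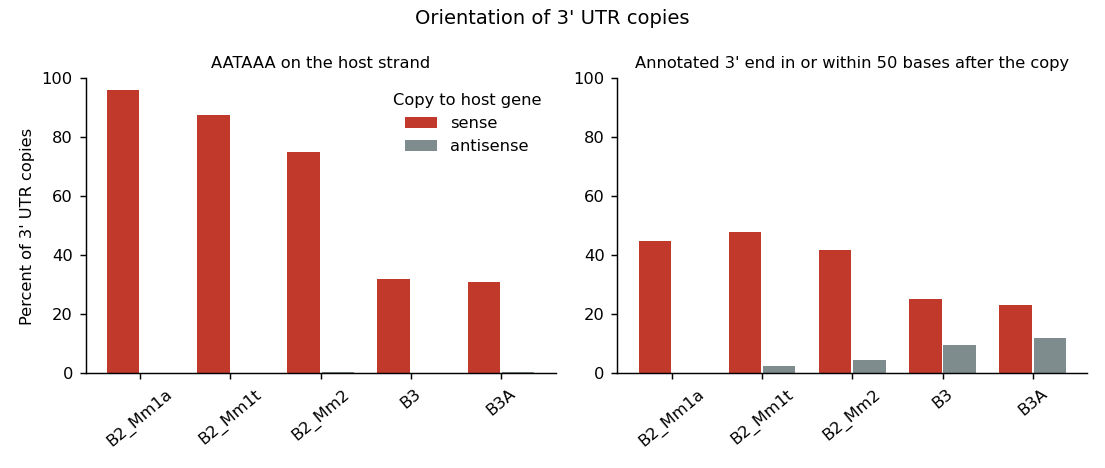
Percent of 3' UTR copies of each name, sense (red) and antisense (grey) to the host gene, with AATAAA on the host strand (left) and with an annotated 3' end in the copy or within 50 bases after it (right). The left bars count only copies that lie whole within 1 transcript exon. The red bars for AATAAA fall from 96.2% for B2_Mm1a to 31.0% for B3A, while the grey bars stay at or below 0.552%. Direction was first set by this motif, so the contrast of red and grey on the left is partly built in.

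The passage from F2 to N2.1 carried the main rise of the B2 names. B2_Mm1a, summed over its copies, was 7702, 6698, 6169, 7384 and 7202 in the F2 libraries A to E and 10437, 10811, 9909, 10473 and 10827 in N2.1. B2_Mm1t was 16957, 14867, 14828, 18703 and 17215 in F2 and 25085, 26617, 21707, 23390 and 26162 in N2.1. For B2_Mm2 the F2 values were 29234, 23852, 23766, 25618 and 31273 and the N2.1 values 39204, 36678, 36597, 39940 and 37647. For each of the 3 B2 names every N2.1 library lay above every F2 library. B3 was 84275, 79492, 76500, 78470 and 90344 in F2 and 100334, 92898, 92253, 99381 and 96930 in N2.1, again without overlap, and B3A overlapped, with 40079 in F2 library E and 39798 in N2.1 library B.

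On the log2(sum + 1) scale B2_Mm1a rose by 0.58 (SE 0.07, limma with Benjamini-Hochberg adjustment over 1004 repeat names, adjusted p = 3.56e-07), B2_Mm1t by 0.58 (SE 0.08, adjusted p = 5.92e-06) and B2_Mm2 by 0.52 (SE 0.07, adjusted p = 4.66e-06). B3 rose by 0.24 (SE 0.04, adjusted p = 6.84e-05) and B3A by 0.18 (SE 0.05, adjusted p = 0.00418). All 5 names thus passed, in a comparison where 39.2% of repeat names did and where the median of all names was 0.29. B1_Mm, a young name of the other large SINE family, differed by 0.16 (SE 0.05, adjusted p = 0.00897). With TMM scaling, which brings the median of all names to 0.03, B2_Mm1a (0.31), B2_Mm1t (0.31) and B2_Mm2 (0.25) still passed, while B3 (-0.03) and B3A (-0.08) did not and changed sign.

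The scale-free comparison is that of each B2 name with B3 in the same library. Relative to B3, B2_Mm1a rose by 0.34 (SE 0.07, limma with Benjamini-Hochberg adjustment over 1003 names, adjusted p = 0.000911), B2_Mm1t by 0.34 (SE 0.08, adjusted p = 0.00343) and B2_Mm2 by 0.28 (SE 0.05, adjusted p = 0.000186), whereas B3A differed from B3 by -0.05 (adjusted p = 0.207). In this fit 23.5% of names passed. The B2 to B3 ratio of summed signal was 0.444, 0.398, 0.406, 0.455 and 0.427 in F2 and 0.524, 0.558, 0.516, 0.524 and 0.540 in N2.1. The 16 libraries from YUMM1.7 cells to F2 lay at 0.389 to 0.456 with a median of 0.415, and the 18 from N2.1 to Balb/c-2 at 0.516 to 0.648 with a median of 0.557, so these sets did not overlap.

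**Figure D2:**
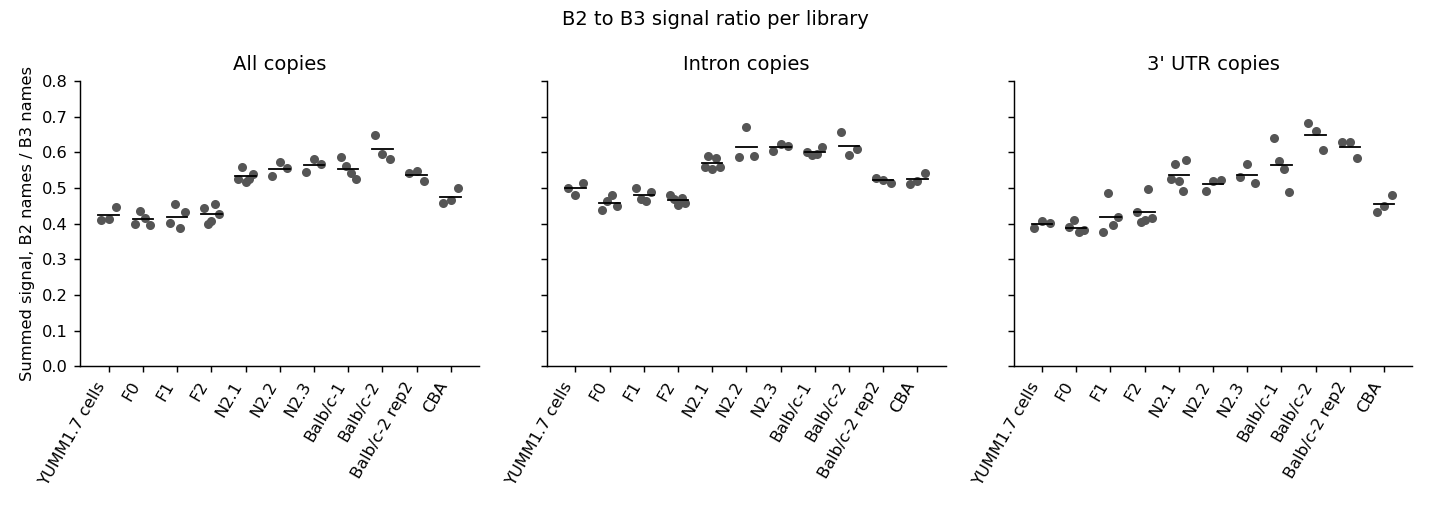
Ratio of the summed signal of the 3 B2 names to that of B3 and B3A, 1 point per library and a bar at each group's mean, for all copies, intron copies and 3' UTR copies. With all copies the libraries up to F2 lie at 0.389 to 0.456 and those from N2.1 to Balb/c-2 at 0.516 to 0.648. In the intron panel Balb/c-2 rep2 lies at 0.515 to 0.528, and in the 3' UTR panel CBA, at 0.434 to 0.480, lies inside the range of the libraries up to F2.

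**Figure D3:**
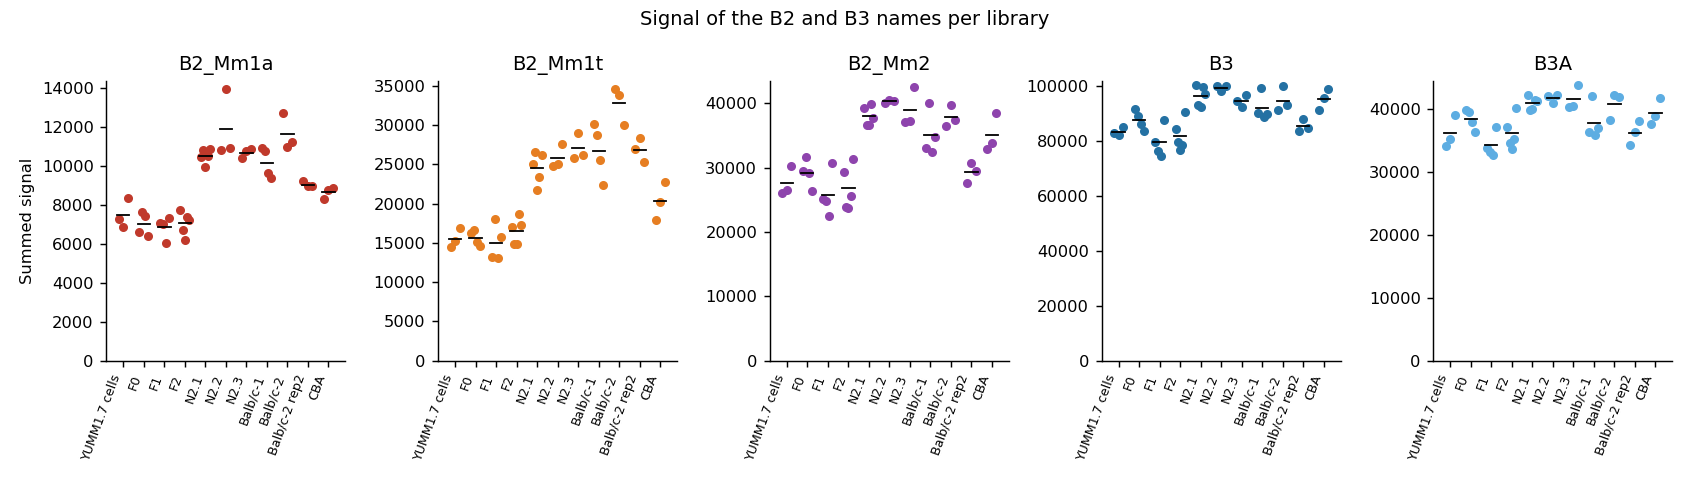
Summed signal of each name per library, by group, with a bar at the group mean; each panel starts at 0. B2_Mm1a and B2_Mm1t in N2.1 lie above every library of F2, and B2_Mm1t is highest in Balb/c-2, where library A reaches 34547.

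The step was also present outside exons. Over copies outside exons, B2_Mm1t rose relative to B3 by 0.26 (limma, adjusted p = 2.22e-05) and B2_Mm2 by 0.24 (limma, adjusted p = 7.99e-07) between F2 and N2.1, while B2_Mm1a, at 0.27, did not pass (limma, adjusted p = 0.0958). The intron ratio was 0.439 to 0.515 in the 16 libraries up to F2 and 0.553 to 0.672 in the 18 from N2.1 to Balb/c-2. The share of each library's signal in introns moved along, from 14.3% to 24.4% in F2 to 21.7% to 26.7% in N2.1. With that share as a covariate the rises relative to B3 were 0.40 for B2_Mm1a, 0.35 for B2_Mm1t and 0.16 for B2_Mm2, and all passed.

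Of the 4769 tested member copies, 376 rose and 62 fell between F2 and N2.1 (limma, 9.18% of the members, against 9.7% of all copies tested). Rises also outnumbered falls over all copies tested, with 2439 higher and 783 lower. Among the 5 names B2_Mm1a had the largest share, with 44 higher and 2 lower of 228 copies (20.2%) and a median log2 difference of 0.73. B2_Mm1t had 49 and 4 of 443 (median 0.42), B2_Mm2 92 and 5 of 921 (median 0.44), B3 150 and 30 of 2163 (median 0.28) and B3A 41 and 21 of 1014 (median 0.22), beside a median of 0.26 over all copies. The rise was not particular to B2 copies. LINE/L1 copies had 466 higher and 78 lower of 3852 (14.1%, median 0.45). The B2 names together had 185 and 11 of 1592 (12.3%, median 0.47), and B1 and other SINE/Alu copies 475 and 173 of 7833 (8.27%, median 0.20). With TMM scaling the members split into 215 higher and 102 lower (67.8% higher, against 85.8%), where 2703 of all 33215 copies were called. With the intron share as a covariate they split into 92 and 32, where 1147 of all 33215 copies were called. The 438 calls became 250 without F2 library B and 283 without N2.1 library D. In introns the medians were 0.91 for B2_Mm1a, 0.57 for B2_Mm1t, 0.63 for B2_Mm2, 0.42 for B3 and 0.38 for B3A, beside 0.43 over all intron copies.

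**Figure D4:**
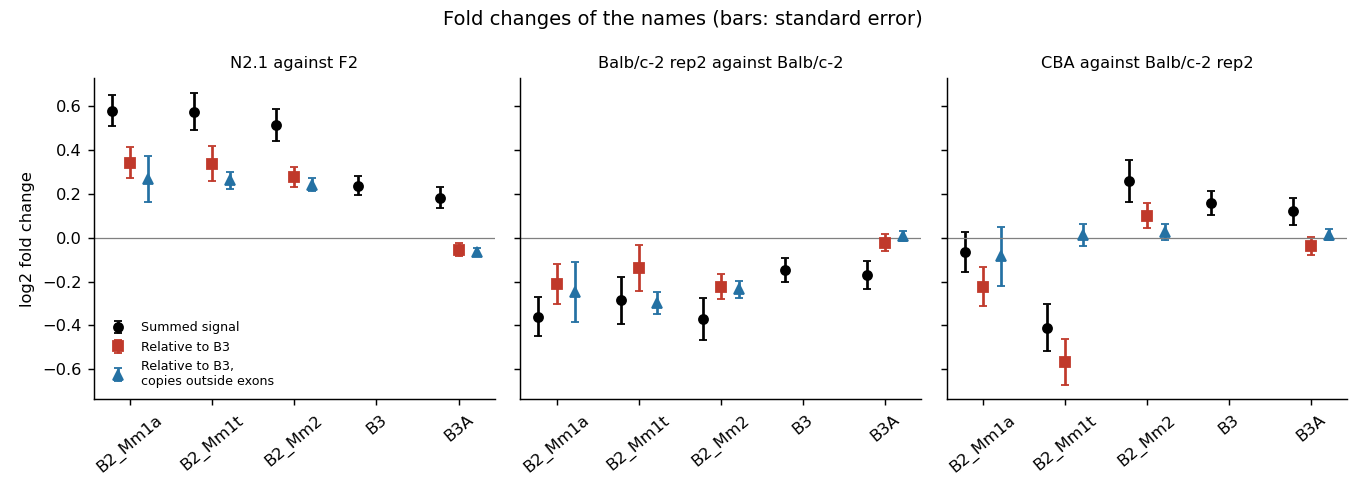
Log2 differences of the 5 names with their standard errors in 3 comparisons, for the summed signal (black circles), relative to B3 (red squares) and relative to B3 over copies outside exons (blue triangles). From F2 to N2.1 the black circles of the B2 names lie at 0.52 to 0.58 and those of the B3 names at 0.18 and 0.24, and between the Balb/c-2 sets all 5 lie below 0.

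The copies with the largest rises lay in several kinds of place. A B3 copy between genes (chr2:148805945-148806204) was at 0 in all 5 F2 libraries and at 24.4, 12.3, 28.1, 15.0 and 6.77 in N2.1, which was at least 5.85-fold higher against a floor of 3 reads per library. The B2_Mm1a copy in an intron of Dnah2, an axonemal dynein gene (chr11:69541664-69541854), was at 2.73, 0, 0, 0 and 0.909 in F2 and at 23.5, 20.5, 29.1, 18.6 and 26.3 in N2.1 (limma, log2 difference 4.04, SE 0.66). The B2_Mm2 copy at the 3' end of Slfn8, a Schlafen gene induced by interferon (chr11:83002130-83002328), had 0 to 2.11 in F2 and 31.1, 81.8, 12.5, 10.6 and 29.3 in N2.1 (log2 difference 3.78, SE 0.53). Named copies were picked among those without overlap between the groups, so the gap between the F2 and N2.1 values is built into the choice. Schlafen genes have close paralogs, so how reads were shared among them is uncertain.

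A B2_Mm1a copy in an intron of Luc7l2, a splicing factor gene (chr6:38561246-38561431), was the single member called between F0 and F2, where it fell from 8.22, 6.94, 5.11 and 7.73 to 0, 0, 1.05, 0 and 1.82, and it rose in N2.1 to 24.4, 11.3, 3.12, 11.5 and 8.28. The fall was lost without any of F0 libraries B, C and D and F2 libraries A, B and D (limma, adjusted p up to 0.165), and also with edgeR, with the 2 groups fitted alone and with the intron share as a covariate. The rise was called without any 1 library. Among the falls, 2 copies in the 3' UTR of Gxylt2, a xylosyltransferase gene, went together. Its B3 copy (chr6:100809160-100809369) was at 287, 193, 228, 273 and 98.1 in F2 and at 38.6, 74.7, 11.4, 11.5 and 7.52 in N2.1. The pair shares a host transcript, and F0 library C, at 7.15, was as low as N2.1. The B3A copy in the 3' UTR of Glp1r, the receptor of glucagon-like peptide, was at 4.56, 38.3, 36.9, 2.87 and 1.82 in F2 and at 0 in every N2.1 library, at least 6.20-fold lower, a call that was lost in 7 of 10 fits that left out 1 library (limma, adjusted p up to 0.139).

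**Figure D5:**
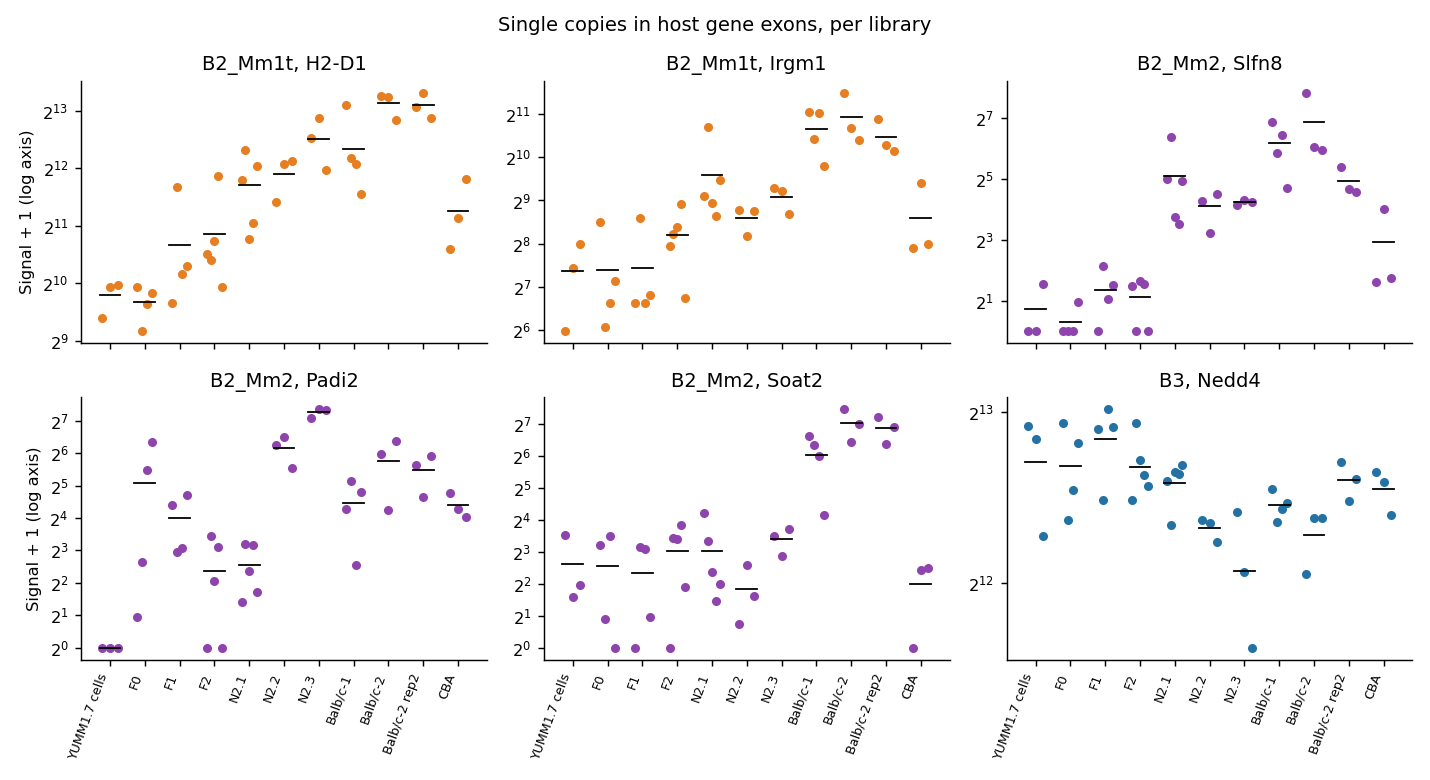
Signal + 1 of single copies per library on a log2 axis, with a bar at each group's mean. The panels are H2-D1 and Irgm1 (B2_Mm1t), Slfn8, Padi2 and Soat2 (B2_Mm2) and Nedd4 (B3). The Slfn8 copy lies at 0 to 2.11 in F2 and at 10.6 to 81.8 in N2.1, and points at the bottom of a panel are libraries with no read.

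No member name passed the test before F2 or within the N2 passages. F0 against YUMM1.7 cells gave no called member name or member copy, where 0% of names and 0% of copies were called (455 member copies had an unadjusted p under 0.05 in limma, edgeR called 0 and DESeq2 2). F2 against F0 gave no called member name (0.199% of names) and the Luc7l2 copy (0.0391% of copies). Relative to B3 no B2 name or B3A passed in these 2 comparisons, where 0.0997% and 0.299% of names did. N2.3 against N2.1 gave no member name (0.498% of names) and none relative to B3 (1.3% of names), and 17 member copies rose and 18 fell (0.734%, against 1.4% of all copies). These 35 calls became 20 without N2.1 library C, N2.1 library E or N2.3 library B, and 65 without N2.1 library B. A p that misses the threshold does not show that these values were equal; the name differences lay between -0.13 and 0.14.

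Between N2.1 and N2.3, 3 adjoining copies in the 3' UTR of Padi2, a peptidylarginine deiminase gene, rose together. The B2_Mm2 copy (chr4:140951445-140951637) was at 1.68, 8.18, 4.16, 7.95 and 2.26 in N2.1 and at 136, 162 and 161 in N2.3. The B3 copy beside it was at 1.02 to 4.16 and at 64.4, 92.3 and 87.1, and the B3A copy at 1.04 to 6.77 and at 99.1, 162 and 99.2. These are 3 readings of 1 transcript, which was not new to N2.3. The B2_Mm2 copy was already at 75.8, 90.3 and 46.0 in N2.2, and at 43.9 and 81.2 in F0 libraries C and D. Their log2 differences were 4.89 (SE 0.78), 4.69 (SE 0.67) and 4.67 (SE 0.75), and each stayed called without any 1 library (limma, adjusted p up to 0.00620).

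From N2.3 to Balb/c-1, 21 member copies rose and 60 fell of 4769, where 2.2% of all copies were called, no member name passed (3.19% of names did) and none passed relative to B3 (2.99% of names). Over all copies tested, 303 rose and 429 fell. The 81 member calls became 38 to 45 without any 1 of the N2.3 libraries or Balb/c-1 library A or C. Of the copies that fell, 2 were nearly absent from there on. The B3 copy in an intron of Epb41l3, a membrane skeleton gene (chr17:69273145-69273357), was at 10.2, 9.47 and 12.9 in N2.3 and at 0, 0.883, 0 and 0 in Balb/c-1 (log2 difference -3.33, SE 0.52, limma, adjusted p = 0.000312). The B2_Mm1t copy in the 3' UTR of Casc4, a Golgi protein gene, was at 8.47, 20.5 and 62.1 and then at 2.76, 0, 0 and 1.04 (log2 difference -3.81, SE 0.68, limma, adjusted p = 0.00120), a call lost with the 2 groups fitted alone. In Balb/c-2, Balb/c-2 rep2 and CBA the Casc4 copy was at 0 in all 9 libraries, and the Epb41l3 copy in 8 of 9, with 1.12 in Balb/c-2 library B. In the 27 libraries up to N2.3 the Epb41l3 copy was never below 3.21, and the Casc4 copy was at 0 in N2.2 library C alone. Balb/c-2 against Balb/c-1 gave no called member copy (0% of copies; 461 with an unadjusted p under 0.05 in limma, 0 called by edgeR and 4 by DESeq2), no member name (0% of names) and none relative to B3 (0%).

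The 2 library sets of the Balb/c-2 tumours measure how far the names move with no passage between them. B2_Mm2 was 36391, 39712 and 37323 in tumours A, B and C of the first set and 27567, 30681 and 29475 in the repeat set. B2_Mm1a was 12681, 10929 and 11206 and then 9219, 8930 and 8932, and B2_Mm1t 34547, 33893 and 29970 and then 26925, 28406 and 25313. Every B2 name was lower in the repeat set in all 3 tumours. B3 was 90934, 99733 and 92847 and then 83392, 87758 and 84546, lower in all 3 tumours by a smaller factor.

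B2_Mm1a differed by -0.36 (SE 0.09, limma, adjusted p = 0.0184) and B2_Mm2 by -0.37 (SE 0.09, limma, adjusted p = 0.0196), and both passed, where 2.99% of names did. B2_Mm1t (-0.29, limma, adjusted p = 0.149), B3 (-0.15) and B3A (-0.17) did not pass. With TMM scaling none of the 5 passed, and B2_Mm1a was at -0.21 and B2_Mm2 at -0.22. Relative to B3, B2_Mm2 fell by 0.22 (SE 0.06, limma, adjusted p = 0.0456, where 1.2% of names passed), and B2_Mm1a (-0.21, adjusted p = 0.304) and B2_Mm1t (-0.14, adjusted p = 0.736) did not pass. That call was lost without any 1 of the 6 libraries (limma, adjusted p up to 0.228) and with the 2 sets fitted alone (limma, adjusted p = 0.176), and with the tumour as a block its adjusted p in limma was 0.0499. The call of the B2_Mm1a sum was lost without 4 of the 6 libraries (first-set A, or repeat-set A, B or C) and that of the B2_Mm2 sum without 3 (first-set B, or repeat-set A or C).

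Set beside the passage, these sizes are of the same order for B2_Mm2 and B2_Mm1a. Relative to B3, B2_Mm2 differed by 0.28 between F2 and N2.1 and by -0.22 between 2 library sets of the same tumours. For B2_Mm1a the 2 values were 0.34 and -0.21, and for B2_Mm1t 0.34 and -0.14. Between the sets B2_Mm1a and B2_Mm1t did not pass. The intron ratio was 0.656, 0.593 and 0.609 in tumours A, B and C of the first set and 0.528, 0.523 and 0.515 in the repeat set. These repeat-set values are below all 18 libraries from N2.1 to Balb/c-2, and the libraries up to F2 lay at 0.439 to 0.515. Over all copies the ratio was 0.648, 0.596 and 0.583 in the first set and 0.542, 0.548 and 0.520 in the repeat set. There the repeat set stayed above every library up to F2 (0.389 to 0.456). Outside exons B2_Mm1t fell by 0.30 (limma, adjusted p = 0.000416) and B2_Mm2 by 0.24 (limma, adjusted p = 0.000399) relative to B3, about as far as they rose from F2 to N2.1. In 3' UTRs the ratio moved less, from 0.684, 0.661 and 0.606 to 0.628, 0.631 and 0.585, and the repeat set stayed above every library up to F2 (0.376 to 0.496). The labels do not say what differed between the sets, and its part in the step from F2 to N2.1 was not tested.

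In the copy test 1 member rose and 7 fell between the sets (0.168%, against 0.232% of all copies). Over all copies tested, 11 rose and 66 fell. The B2_Mm2 copy at the 3' end of Tmem70, a mitochondrial assembly factor gene (chr1:16677996-16678179), was at 96.7, 97.5 and 127 in the first set and at 34.6, 38.7 and 30.3 in the repeat set (log2 difference -1.60, SE 0.27, limma, adjusted p = 0.00172). It stayed called without any 1 library (limma, adjusted p up to 0.0293), but not with the 2 sets fitted alone, where no member copy was called. The calls of Nfkb1, Zfp952, Cfl1, Mrpl10, Cog8 and Ap4m1 were each lost without at least 1 library (in 2 to 6 of 6 fits), and with TMM scaling only 3 calls were made, those of Nfkb1, Tmem70 and Cog8. The number of calls became 1, 4 and 5 without first-set library A, B and C, and 3 without repeat-set library C. The copy that rose was a B3 copy antisense in the 5' UTR of Nfkb1, a transcription factor gene, at 166, 184 and 236 and then 551, 327 and 498.

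Of the 7 copies that fell, 6 lay at an annotated 3' end of their gene (Ap4m1, Cog8, Tmem70, Mrpl10, Cfl1 and Xxylt1), and the Zfp952 copy did not. All 7 lay in 3' UTRs, and so did 55 of the 66 copies of any repeat that fell. Those 55 included 10 SINE/Alu and 5 SINE/B4 copies, so falls in 3' UTRs were not particular to the members. Annotated 3' ends were read for the members only. This grouping by 3' ends was made after the values were seen. Over the tested 3' UTR members the median between the sets was -0.32 for the 219 at a 3' end and -0.15 for the 885 away from one. Within the B2 names these were -0.39 and -0.21, and within the B3 names -0.29 and -0.12. Between F2 and N2.1, which share no library with the Balb/c-2 sets, the medians were 0.25 and 0.13. The B2 names were 99 of the 219 and 261 of the 885, so the 2 pooled medians mix the names in different shares. Within the B2 names the medians from F2 to N2.1 were 0.34 and 0.30, and within the B3 names 0.16 and 0.07. Other comparisons also had such gaps, with 0.11 and -0.08 from N2.3 to Balb/c-1 and -0.04 and 0.13 from Balb/c-1 to Balb/c-2, while CBA against the repeat set had -0.14 and -0.16. In CBA the names went opposite ways, with -0.28 and -0.18 for the B2 names and 0.06 and -0.14 for the B3 names. Between F2 and N2.1, 65 of the 219 members at a 3' end were below 0, 18 were called higher and 5 lower. Of the 885 away from one, 69 were called higher and 30 lower. In that comparison 12.2% of all 3' UTR copies and 9.7% of all copies tested were called. The 6 copies, picked after their values were seen, were above 0 in that comparison, and 3 were called: Ap4m1 (1.48, limma, adjusted p = 0.00167), Tmem70 (1.09, limma, adjusted p = 0.000438) and Mrpl10 (2.00, limma, adjusted p = 3.1e-06). The Nfkb1 copy went the other way, falling by 0.97 (limma, adjusted p = 0.000386).

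The Tmem70 copy, chosen among those called lower in the repeat set, is given across groups as 1 example. Other copies lower in that set were not called between F2 and N2.1: Cog8 (0.53), Cfl1 (0.34), Xxylt1 (0.28) and Zfp952 (0.05). The Tmem70 copy was at 34.8, 36.3 and 35.7 in YUMM1.7 cells, at 43.7, 61.2, 35.8, 34.4 and 32.7 in F2 and at 80.6, 83.9, 91.5, 108 and 76.0 in N2.1. The N2.2 values were 119, 104 and 147, those of N2.3 135, 104 and 87.8, and those of Balb/c-1 105, 105, 83.6 and 103. CBA, which shares the library name form with Balb/c-2 rep2, was at 25.1, 42.4 and 16.4. The copy was thus high from N2.1 to the first Balb/c-2 set and low in the 6 libraries of the other name form. Library form and passage cannot be told apart for CBA, which has no second set.

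CBA was compared with Balb/c-2 rep2, the set of the same library name form. Of the members, 169 copies rose and 73 fell (5.07%, against 5.93% of all copies). Over all copies tested, 1127 rose and 843 fell. Members in introns had a median of 0.52 (0.53 over all intron copies) and those in 3' UTRs a median of -0.15 (-0.16), and the intron share of the libraries was 17.8% to 19.5% in the repeat set and 24.6% to 27.3% in CBA. With the intron share as a covariate 8 members were higher and 14 lower, where 252 of all 33215 copies were called. With TMM scaling 131 were higher and 96 lower (57.7% higher, against 69.8%), where 1918 of all 33215 copies were called. The 242 calls became 79 without repeat-set library C, 141 without repeat-set library A, 108 without CBA library A and 82 without CBA library C.

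B2_Mm1t was the 1 B2 name called in this fit. It was 26925, 28406 and 25313 in the repeat set and 17964, 20172 and 22794 in CBA, without overlap, and fell by 0.41 (SE 0.11, limma, adjusted p = 0.0135, where 14% of names passed). Without CBA library A it was at -0.32 and did not pass. Relative to B3 it fell by 0.57 (SE 0.10, limma, adjusted p = 0.000254, where 18.8% of names passed). B3 rose by 0.16 (limma, adjusted p = 0.0487), a call lost with TMM scaling and without any of 5 of the 6 libraries (limma, adjusted p up to 0.199), and B2_Mm1a (-0.07) and B3A (0.12) did not pass. B2_Mm2, at 0.26, did not pass either (limma, adjusted p = 0.0632), but was called with TMM scaling (0.20, limma, adjusted p = 0.0440), with edgeR (0.20), with the 2 groups fitted alone (limma, adjusted p = 0.0421) and without its 10 highest copies (0.28), and with the intron share as a covariate it was at -0.06.

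That fall rests on few copies. Without its 10 highest copies B2_Mm1t stood at 0.28, and at 0.08 relative to B3, neither past the threshold, and outside exons it stood at 0.01 relative to B3. The H2-D1 copy alone (chr17:35267183-35267356) was at 8535, 10142 and 7517 in the repeat set and at 1543, 2244 and 3581 in CBA (log2 difference -1.90, SE 0.40, limma, adjusted p = 0.00375). Class I genes are close paralogs, so reads of this copy may be shared with its relatives and its value is uncertain. Without it, B2_Mm1t was 18150 ± 313 in the repeat set and 17854 ± 1397 in CBA (SD, n = 3 each). The copy in the 3' UTR of Rin1, a Ras effector gene, fell too, from 1257, 1200 and 1546 to 581, 506 and 508 (log2 difference -1.32, SE 0.23, limma, adjusted p = 0.000651).

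The H2-D1 copy was at 674, 978 and 1008 in YUMM1.7 cells, at 978, 574, 800 and 915 in F0, at 1451, 1358, 1710, 3719 and 977 in F2 and at 3540, 5079, 1736, 2104 and 4189 in N2.1. It was at 5903, 7480 and 3998 in N2.3, at 8776, 4634, 4284 and 3001 in Balb/c-1 and at 9762, 9704 and 7360 in the first Balb/c-2 set, so its level did not go up at every passage. Between F2 and N2.1 it did not pass (log2 difference 0.90, limma, adjusted p = 0.0582). Without this copy B2_Mm1t was 14671 ± 1324 in F2 and 21263 ± 763 in N2.1 (SD, n = 5 each), so the step between those passages did not rest on it.

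Among the copies lowest in CBA were 2 of B2_Mm2 in Soat2, which esterifies cholesterol. The 3' UTR copy (chr15:102163279-102163468) was at 148, 82.9 and 120 in the repeat set and at 0, 4.35 and 4.69 in CBA (log2 difference -5.20, SE 0.90), and the intron copy at 24.0, 33.2 and 19.7 and at 0, 1.09 and 0. A B3 copy in an intron of Angptl6, an angiopoietin-like gene, went from 110, 99.5 and 166 to 3.14, 6.52 and 2.35. Among the highest was a B3 copy in an intron of Uhrf1, which maintains DNA methylation, at 1.33, 3.32 and 1.51 in the repeat set and at 38.7, 25.0 and 43.4 in CBA (log2 difference 3.61, SE 0.65). B3 copies in introns of Acly, which makes acetyl-CoA for lipid synthesis, and of Fdps, of the isoprenoid pathway, rose by 3.31 (SE 0.57) and 3.29 (SE 0.76). All of these passed in limma. The Uhrf1, Acly and Fdps calls were lost with the intron share as a covariate, and the Fdps call was lost without Balb/c-2 rep2 library C (limma, adjusted p = 0.0602).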

How the data were processed

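The deposited values are a signal per repeat copy: whole reads divided by 1 factor per library, recovered here within 0.1 read. Per the submitters' processing notes, HISAT2 2.0.5, StringTie 1.3.3b and featureCounts 1.5.0-p3 were used with mm10. Of the repeat annotation, the treatment of reads with several matches and the strand setting, nothing is stated in the labels or notes used here.

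Copies whose signal averaged 5 or more across the 40 libraries (33215), and sums per repeat name with a mean of at least 5 (1004), were tested as log2(value + 1) with limma 3.58.1 (R 4.3.3, trended prior, 1 mean for each of 11 groups, two-sided). P-values were adjusted by Benjamini-Hochberg within each of 8 comparisons, with calls at an adjusted p under 0.05. In a further fit each name was taken relative to B3 in the same library (1003 names). F1 and N2.2 were described only. edgeR 4.0.16 and DESeq2 1.42.0 on recovered reads, TMM scaling, the library's intron share as a covariate, other minimums and pseudocounts, and leaving out each library were alternatives. The fitting code was tested on simulated data.

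Copies were placed by GENCODE M21 on GRCm38 (bedtools 2.31.1), and exonic copies were read from its transcripts (biopython 1.88). Sense or antisense was first set by AATAAA in the last 60 bases or its reverse complement in the first 60. It was then called from words of 8 bases shared among copies, and at least 60 bases were required. Scored without words that hold most of the motif, all 7819 called copies kept their direction, but the word weights came from the same start. A 3' end counted as near within 50 bases. Promoter windows were the first 190 bases of RefSeq's GRCm38.p6 promoters. Intron and intergenic sequence was not used here, and some sequences are not reported here. A floor of 3 reads per library was used where a group had none, for counting error only.

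The members, lists and rules were chosen with earlier results of these data known. Copies named were the 6 highest and 6 lowest called log2 differences in a comparison without overlap between groups, of which the text gives those it describes, and the 10 with the highest mean; copies at loci that cannot be printed were left out. The printed sequences and the grouping by 3' ends were chosen after values were seen. Residuals of same-tumour libraries in the 2 Balb/c-2 sets correlated at 0.155 to 0.255 over copies and those of other tumours at -0.195 to -0.0563, so the tumour letter pairs them, as the labels state.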

Additional observations from a re-analysis of the deposited data

Results flagged for a closer look

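In 13 of 137 groups of 4 or 5 libraries examined, the highest or lowest library stood apart from the others by Dixon's criterion, which chance alone meets in about 1 in 20 groups. B3 summed to 99080 in Balb/c-1 library B, where the next highest was 89934. The B2_Mm1t copy in Irgm1, an interferon-induced GTPase gene, was at 382.6 in F1 library B and at 1664 in N2.1 library B, where the next highest libraries were at 111 and 713. In N2.1 library B the Slfn8 copy of B2_Mm2 was also highest, at 81.83, and an intergenic B2_Mm1t copy on chromosome 17 was lowest, at 11.25. In F2 library D the B2_Mm1t copies in H2-D1 and Clec2d were both high, at 3719 and 1556, where the next highest were 1710 and 609. N2.1 library A had 2.519 at an intergenic B2_Mm1t copy on chromosome 4, 10.92 at the B3A copy beside it and 0.84 at the B2_Mm2 copy in Clmp, a cell adhesion gene, in each case above the other 4 libraries. The B3 copy in Mob1a, a kinase activator gene, was at 1578 in F1 library E, with the next highest at 1400. In Balb/c-1 the Epb41l3 copy had a read in library B alone (0.883), and the B3A copy in Cyba, an oxidase subunit gene, was at 0 in library D and at 1.77 to 1.92 in the others, differences of a few reads.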

How the results depend on the processing

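Comparisons are named here by their later group (N2.1 stands for N2.1 against F2, CBA for CBA against the repeat set, and the repeat set for its comparison with the first Balb/c-2 set), and the value in parentheses is the one reported. Among all alternatives, 574 values of name sums kept direction and call, 57 changed sign, 28 lost and 6 gained a call; relative to B3 these counts were 362, 30, 8 and 4. For named copies 666 values kept their call and 175 lost it with the same direction. Counts of calls stayed within 1.5 times the reported count in 169 cases and moved in 89. Unless stated, the cause of a change was not tested; single libraries of 1280522 reads in repeats limit copies near the minimum signal of 5 to a few reads.

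Without the 10 highest copies of each name, B2_Mm1a relative to B3 was 0.14 in CBA (-0.22) and -0.02 in F2 (0.10), and its sum 0.34 in CBA (-0.07), 0.03 in F0 (-0.09) and -0.15 in F2 (0). B2_Mm1t relative to B3 was -0.08 in Balb/c-1 (0.01), 0.08 in CBA (-0.57) and 0 in F2 (0.17), and its sum 0.28 in CBA (-0.41) and -0.14 in F2 (0.07). B3A relative to B3 was 0.01 in CBA (-0.04) and -0.01 in F2 (0.01).

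Over copies outside exons, the B2_Mm1a sum was 0.39 in CBA (-0.07), 0.06 in F0 (-0.09) and -0.19 in F2 (0). B2_Mm1t relative to B3 was -0.02 in Balb/c-1 (0.01) and 0.01 in CBA (-0.57), and its sum 0.49 in CBA (-0.41) and -0.27 in F2 (0.07). B2_Mm2 relative to B3 was -0.08 in F0 (0.01). B3A relative to B3 was 0 in Balb/c-1 (-0.10), 0.01 in the repeat set (-0.02), -0.02 in Balb/c-2 (0.07), 0.01 in CBA (-0.04), 0 in F2 (0.01) and -0.01 in N2.3 (0.05), and its sum -0.06 in N2.3 (0.02). Called names numbered 0 in the repeat set (2) and 0 in CBA (2).

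With TMM scaling, the B2_Mm1t sum was 0.01 in Balb/c-1 (-0.03) and -0.05 in F0 (0.01), the B3 sum -0.04 in Balb/c-2 (0.04), 0 in the repeat set (-0.15) and -0.03 in N2.1 (0.24), and the B3A sum -0.08 in N2.1 (0.18). Called member copies numbered 1 in Balb/c-2 (0), 3 in the repeat set (8) and 4 in F2 (1), and called names 0 in the repeat set (2) and 3 in N2.1 (5). Higher calls made up 40.5% of the calls in Balb/c-1 (25.9%).

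With the intron share as a covariate, the B2_Mm1t sum was 0.04 in Balb/c-1 (-0.03) and -0.10 in F0 (0.01). B2_Mm2 relative to B3 was -0.04 in CBA (0.10), -0.10 in F0 (0.01) and 0.06 in F2 (-0.03), and its sum -0.06 in CBA (0.26), -0.15 in F0 (0.08) and 0.07 in F2 (-0.13). The B3 sum was 0.04 in Balb/c-1 (-0.04), -0.01 in CBA (0.16), -0.05 in F0 (0.07) and 0.01 in F2 (-0.10), and the B3A sum -0.07 in CBA (0.12), -0.05 in F0 (0.09) and 0.03 in F2 (-0.09). Called copies numbered 47 in Balb/c-1 (81), 22 in the repeat set (8), 1 in Balb/c-2 (0), 22 in CBA (242), 1 in F0 (0), 0 in F2 (1) and 124 in N2.1 (438), and called names 1 in CBA (2).

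With edgeR on recovered reads, the B2_Mm1t sum was 0.01 in Balb/c-1 and -0.05 in F0, the B3 sum -0.04 in Balb/c-2, 0 in the repeat set and -0.03 in N2.1, and the B3A sum -0.08 in N2.1. Called copies numbered 2 in the repeat set, 123 in CBA and 0 in F2, and called names 0 in the repeat set and 3 in N2.1. With DESeq2, the B2_Mm1t sum was 0.01 in Balb/c-1 and -0.07 in F0, the B2_Mm2 sum 0 in F0, the B3 sum -0.04 in Balb/c-2, 0.02 in the repeat set, -0.01 in F0 and -0.03 in N2.1, and the B3A sum 0 in the repeat set and -0.08 in N2.1. Called copies numbered 4 in Balb/c-2, 159 in CBA, 2 in F0, 9 in F2 and 57 in N2.3 (35), and called names 0 in the repeat set, 1 in CBA and 3 in N2.1.

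With the 2 groups fitted alone, which leaves fewer samples to estimate the spread, B2_Mm2 relative to B3 was -0.22 in the repeat set and not called, and called copies numbered 19 in Balb/c-1, 0 in the repeat set, 81 in CBA, 0 in F2 and 15 in N2.3. Called names numbered 1 in the repeat set. With all repeat names tested, called names numbered 1 in CBA. With a mean above 0.5, called copies numbered 134 in Balb/c-1, 3 in the repeat set, 7 in Balb/c-2, 3 in F0, 6 in F2 and 87 in N2.3. With a mean of at least 20, they numbered 50 in Balb/c-1, 17 in the repeat set, 124 in CBA, 5 in F2 and 207 in N2.1, and with a pseudocount of 0.5, 1 in Balb/c-2. With the tumour as a replicate block, the Balb/c-2 sets gave 11 called copies (8), B2_Mm1a was -0.36 and B2_Mm2 -0.37, and relative to B3 B2_Mm2 was -0.22 (limma, adjusted p = 0.0499); the block changed no call of a name.

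Leaving out 1 library at a time gave these ranges. The B2_Mm1a sum ran from -0.04 to 0.05 in F2. B2_Mm1t relative to B3 ran from -0.06 to 0.08 in Balb/c-1, and its sum from -0.09 to 0.06 there and from -0.04 to 0.08 in F0. B2_Mm2 relative to B3 ran from -0.24 to -0.20 in the repeat set, not called without any 1 of the 6 libraries (limma, adjusted p up to 0.228), and from -0.03 to 0.06 in F0, and its sum from -0.03 to 0.07 in N2.3. B3A relative to B3 ran from -0.06 to 0.01 in the repeat set, from -0.06 to 0 in CBA and from -0.02 to 0.06 in F0, and its sum from -0.02 to 0.04 in N2.3. Called copies ran from 38 (without N2.3 library C) to 92 in Balb/c-1, from 0 to 9 (without Balb/c-2 library B) in Balb/c-2 and from 1 (without Balb/c-2 library A) to 9 in the repeat set. They ran from 79 (without repeat-set library C) to 280 in CBA, with 141 without repeat-set library A, 108 without CBA library A and 82 without CBA library C. They ran from 0 to 2 in F0, from 0 to 7 (without F0 library A) in F2, from 250 (without F2 library B) to 495 in N2.1, with 283 without N2.1 library D, and from 20 (without N2.1 library C or E or N2.3 library B) to 65 (without N2.1 library B) in N2.3. Called names ran from 0 (without repeat-set library A or C) to 2 in the repeat set, and from 0 (without CBA library A) to 2 in CBA.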
